A study of Camellia sinensis with 6 samples.

Results

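Jasmonate-induced proteins take their name from barley leaves, in which the hormone jasmonate makes them accumulate. Jasmonate is made from fatty acids of the chloroplast membranes and is known for its part in the response to wounding, herbivores and senescence. The 23 kDa jasmonate-induced protein of barley is the reference sequence of a small plant family whose biochemical activity is not established. In the transcriptome of the tea cultivar ‘Huangjinya’, 5 of the 127252 unigenes read carried the words "jasmonate-induced protein" in their best hit in the non-redundant protein database (Nr), and these 5 unigenes are described here. The annotation was chosen by the fragment counts of Unigene36526, which were 214 or more in each shaded library and at most 2 in sunlight. The contrast of this unigene between shading and sunlight is therefore given as a description, with no test. The other 4 unigenes, Unigene16478, CL12494.Contig1, CL12494.Contig2 and CL9700.Contig1, entered by annotation alone.

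‘Huangjinya’ is a tea plant (Camellia sinensis) with light-dependent leaf colour. Third-position leaves, yellow, of 2-year-old field plants in full sunlight gave the libraries Y1, Y2 and Y3. Green leaves of such plants after 10 days of shading, by netting that took away about 45% of the light, gave the libraries Y+S1, Y+S2 and Y+S3. Values of single libraries are given in this order. Both groups were of the same cultivar, age and field, and each library came from different plants, so the comparison holds for 1 cultivar, 1 site and 1 degree of shade. The libraries held 10022397 to 18742989 uniquely aligned fragments. Of 32 unigenes annotated as small subunits of Rubisco or chlorophyll a/b binding proteins, which mark leaf mesophyll, 29 had a mean level of at least 1 FPKM (fragments per kb of unigene per 1000000 fragments).

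The libraries Y1 and Y+S3 stood apart. The correlation of log2(FPKM + 0.5) across unigenes was 0.63 and 0.73 between Y+S3 and the other shaded libraries, against 0.89 between Y+S1 and Y+S2. The mean length of the unigenes, weighted by fragments, was shortest in Y1 (1341 nt) and Y+S3 (1376 nt), the other 4 libraries lying between 1508 and 1674 nt. The summed level of 7 phloem marker unigenes was 2106 normalized counts per 1000000 (CPM, scaled by edgeR's TMM) in Y+S3 and 939 in Y1, against 362 to 526 in Y2 and Y3 and 427 to 456 in Y+S1 and Y+S2. The summed level of 9 cyclin B unigenes was 1128 and 1150 in Y+S3 and Y1, against 517 to 636 in the others. The study's own differential test did without Y1 and Y+S3, so tests were made over the other 4 libraries first and then over all 6.

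All 5 unigenes had the 23 kDa protein of barley as their best Swiss-Prot hit, and 4 of them shared 1 cucumber protein as best Nr hit, CL12494.Contig2 being the exception. The similarity to barley was highest for Unigene36526 (829 nt, bit score 178, E value 3e-45), followed by Unigene16478 (1008 nt, 171, 5e-43). CL12494.Contig1 (1138 nt) had a bit score of 158, CL12494.Contig2 (594 nt) one of 142 and CL9700.Contig1 (646 nt) one of 130. None of the 5 had an entry in GO, KEGG or COG (0 of 5), while 49.95% of all unigenes had at least 1. The sequences of the unigenes were not analysed here, so it was not tested whether they are separate genes, alleles or pieces of the same transcript.

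Unigene16478 was the most abundant of the 5 in every library. It had 126, 186 and 198 FPKM in sunlight, and 1325, 712 and 2372 FPKM under shading. The groups did not overlap, and the lowest shaded library was 3.59 times the highest sunlight library. When unigenes were ranked by FPKM within a library, Unigene16478 was at place 1188 in Y1, 690 in Y2 and 584 in Y3. Under shading it was at places 50, 80 and 25, among the most abundant transcripts of the leaf. The mean was 170.1 ± 38.5 FPKM in sunlight and 1469.6 ± 839 FPKM under shading (SD, n = 3 each), a ratio of 8.64. The shaded libraries also differed among themselves, Y+S3 having 3.33 times the FPKM of Y+S2. In normalized CPM the difference was larger, at 3520 in Y+S3 and 571 in Y+S2. In bulk leaf RNA a change in the RNA of each cell cannot be told apart from a change in the number of cells that hold it.

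For Unigene16478 the log2 fold change was 2.39 over the 4 libraries used by the study (standard error 0.40, edgeR quasi-likelihood test, adjusted p = 0.113) and 3.36 over all 6 (standard error 0.73, adjusted p = 0.496). It did not pass an adjusted p of 0.05 in either. DESeq2, run as an alternative, gave 2.37 (adjusted p = 4.6e-07) and 3.38 (adjusted p = 0.000658). Without Y+S3 the value over the remaining 5 libraries was 2.38, so this library took the 6-library value to almost 1 log2 unit above that of the 4 libraries. Between Y1 and Y+S3, the libraries that the study left out, the ratio was 18.8 in FPKM, with 1 library on each side and no replicate check.

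CL12494.Contig1 followed the same course at a lower level. It had 5.70, 8.80 and 9.21 FPKM in sunlight and 63.9, 45.2 and 119 FPKM under shading, without overlap. The mean was 7.90 ± 1.92 FPKM in sunlight and 76.1 ± 38.5 FPKM under shading (SD, n = 3 each), a ratio of 9.63. The log2 fold change was 2.57 over 4 libraries (standard error 0.31, edgeR, adjusted p = 0.0619) and 3.51 over 6 (standard error 0.63, adjusted p = 0.485). DESeq2 gave 2.55 (adjusted p = 1.0e-08) and 3.53 (adjusted p = 0.000126). Between Y1 and Y+S3 the ratio was 20.9. The second contig of the cluster, CL12494.Contig2, had 4, 0 and 0 fragments in sunlight and 15, 4 and 5 under shading. Y1 lay level with Y+S2, and the contig failed the filter on low counts in both fits, so no change was detectable at this depth. Fragments that match both contigs are not among the uniquely aligned ones, so the split between the 2 contigs is uncertain.

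Unigene36526, the unigene for which the annotation was chosen, had 0, 0 and 2 fragments in sunlight and 421, 214 and 576 under shading. These are 0, 0 and 0.241 FPKM in sunlight and 27.1, 18.9 and 62.1 FPKM under shading. The 3 shaded libraries together had 1211 fragments and the sunlight libraries 2, a ratio of 436 after scaling (95% interval 120 to 3606, exact, for counting error only). A count of 0 allows up to 3 fragments, which is 0.240 CPM in Y1 and 0.278 CPM in Y2, here without TMM scaling. The fitted log2 fold change was 7.47 over 4 libraries and 9.01 over 6 (standard errors 0.66 and 1.20), and at so low a sunlight count it depends on the prior count of the fit. At least 100 fragments in every shaded library and at most 3 in every sunlight library were found in 1 of 127252 unigenes, Unigene36526. These limits restate the pattern for which it was chosen, so its passing them is a description only. The reverse pattern was found in 0 unigenes. At a minimum of 50 fragments per shaded library there were 3 unigenes, the others being Unigene410, of unknown function, and Unigene49810, a retrotransposon protein, and at a minimum of 10 there were 74.

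CL9700.Contig1 did not follow this course. It had 14, 11 and 6 fragments in sunlight and 14, 18 and 22 under shading, which is 1.41 ± 0.429 and 2.08 ± 0.944 FPKM (SD, n = 3 each), and the groups overlapped. Its log2 fold change was 0.25 over 4 libraries (standard error 0.58, edgeR, adjusted p = 0.888) and 0.57 over 6 (standard error 0.67, adjusted p = 0.844). Its best hit in Nr is the same cucumber protein as that of Unigene16478, CL12494.Contig1 and Unigene36526.

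**Figure D1:**
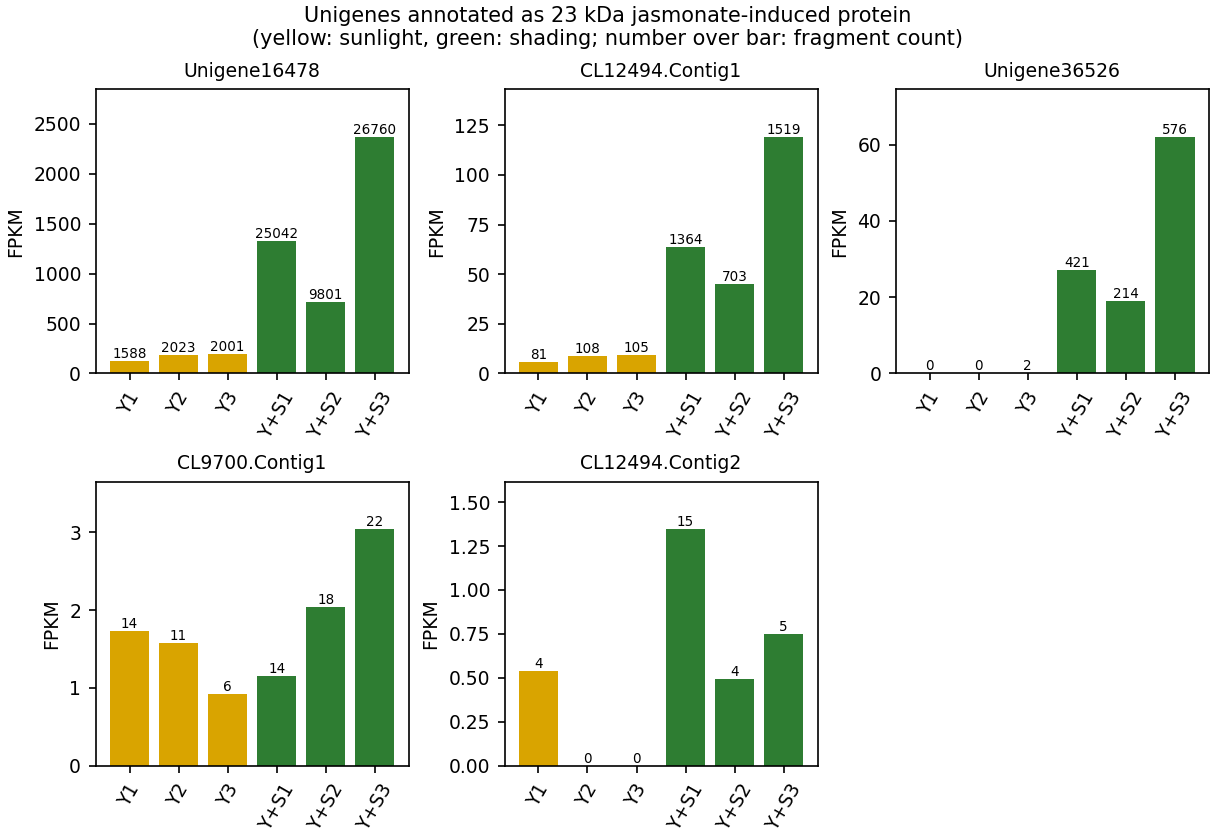
FPKM of the 5 unigenes annotated as 23 kDa jasmonate-induced protein (bars, 1 per library, each panel with its own axis from 0), with the fragment count over each bar. In Unigene16478, CL12494.Contig1 and Unigene36526 every shaded bar is above every sunlight bar and Y+S3 is the highest, while CL9700.Contig1 and CL12494.Contig2 overlap between the groups.

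Over the 4 libraries, 1 of the 5 unigenes passed an adjusted p of 0.05 in edgeR, higher under shading, beside 0.0451% of the 64281 unigenes tested that were called higher, 0.00778% called lower and 0.0529% in either direction. This was Unigene36526, and nothing is read from its call, since the contrast chose it. Over 6 libraries 0 of the 5 passed, as did 0% of the 59300 unigenes tested. An unadjusted p below 0.05 was found for 3 of the 5 in each set, Unigene36526 among them, beside 14.9% of all unigenes over 4 libraries and 8.06% over 6. DESeq2 called Unigene16478, CL12494.Contig1 and Unigene36526 in both sets of libraries, beside 0.761% of all unigenes called higher over 4 libraries and 0.624% over 6. On 1 simulated data set of 6 libraries DESeq2 made 28 false calls and edgeR 4. On 1 of 4 libraries each made 5. The simulated counts were drawn with edgeR's own estimate of the spread between libraries. How far these numbers hold for the real counts was not tested, and the calls of DESeq2 stay an alternative. In 3 of the 5, Unigene36526 among them, every shaded library lay above every sunlight library, and in 0 of the 5 below. Nothing is read from Unigene36526 in this count or in the calls of DESeq2, since the contrast chose it. Over 6 libraries 6.67% of all unigenes tested lay above and 7.28% below in this way, and over the 4 libraries 24.9% lay above. Over the 4 libraries CL12494.Contig2 also lay above, at 15 and 4 fragments against 0 and 0, without passing the filter. Of the 5, 4 passed the filter on low counts in each set.

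Unigene16478 held 94.1% (Y1), 94.4% (Y2) and 94.7% (Y3) of the fragments of the 5 unigenes in sunlight, with 95% Wilson intervals, which cover counting error only, between 92.9% and 95.5%. Under shading it held 93.2%, 91.3% and 92.7%, with intervals between 90.7% and 93.5%. Per length, CL12494.Contig1 stood at 4.52% to 4.73% of the FPKM of Unigene16478 in sunlight and at 4.82%, 6.35% and 5.03% of it under shading. Unigene36526 stood at 2.04%, 2.65% and 2.62% of the FPKM of Unigene16478 under shading, and at 0.122% in Y3. The summed level of the 5 unigenes was 179 to 188 normalized CPM in sunlight and 1312, 626 and 3800 normalized CPM in the shaded libraries.

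The shaded libraries stood in the same order for Unigene16478, CL12494.Contig1 and Unigene36526, with Y+S3 highest, then Y+S1, then Y+S2, both in FPKM and in normalized CPM. This order was found in 17.3% of the 59300 unigenes tested over 6 libraries. Y+S3 was also the library with the highest phloem markers and with shorter transcripts, and the part of these in the result was not tested. Without Y1 and Y+S3 the direction of Unigene16478 and CL12494.Contig1 was the same.

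Further unigenes were related to the family but lay outside the words used, and were gathered after their values had been seen, so they are described without a test. The barley protein was the best Swiss-Prot hit of 9 unigenes in all, 4 of them beside the 5 above. These are CL10973.Contig1, CL10973.Contig2, CL5621.Contig1 and CL9700.Contig2, whose bit scores of 63.2 to 77.4 were lower than those of the 5. Another 2, Unigene12463 and Unigene47352, had no Swiss-Prot hit but shared their best Nr hit with the first 3 of these, a protein from tea itself with no assigned function.

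CL10973.Contig1 (1085 nt) was as abundant as Unigene16478. It had 137, 242 and 276 FPKM in sunlight and 1719, 678 and 2531 FPKM under shading, without overlap. It ranked at place 37, 87 and 22 by FPKM in the shaded libraries, and between 375 and 1099 in sunlight. Its level was 0.952 to 1.39 times that of Unigene16478 in every library, so these 2 unigenes held most of the family's fragments in both conditions. Its log2 fold change was 2.21 over 4 libraries and 3.18 over 6 (standard errors 0.49 and 0.74).

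CL10973.Contig2 (418 nt) and Unigene47352 (322 nt) resembled each other in their course. CL10973.Contig2 had 9, 6 and 42 fragments in sunlight, and 945, 251 and 575 under shading. Unigene47352 had 3, 2 and 25 in sunlight and 485, 122 and 315 under shading. In both, Y3 was the highest sunlight library. In FPKM this was also so for CL10973.Contig1, Unigene16478 and CL12494.Contig1, while CL9700.Contig1 and CL12494.Contig2 were highest in Y1. Their log2 fold changes were 3.91 and 3.75 over 4 libraries (standard errors 0.81 and 0.87) and 4.74 and 4.75 over 6 (standard errors 0.90 and 1.03). Whether these short contigs are pieces of the same transcript was not tested.

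CL5621.Contig1 (445 nt) came closest to Unigene36526 in being nearly absent in sunlight. It had 0, 0 and 2 fragments there and 130, 16 and 152 under shading, a scaled ratio of 107 (95% interval 29.5 to 890.4, exact, counting error only). Unigene12463 (491 nt) had 0, 0 and 1 against 35, 5 and 53, a ratio of 67.0 (95% interval 11.7 to 2674). CL9700.Contig2 (439 nt) had 0, 1 and 2 fragments in sunlight and 23, 9 and 2 under shading, a ratio of 8.16 (95% interval 2.57 to 41.5), and it was lowest in Y+S3. In sunlight, Y3 was the library with most fragments for Unigene36526 and for these 3 unigenes, at no more than 2 fragments each. Of the 6 related unigenes, 5 had the order of the shaded libraries found in Unigene16478.

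**Figure D2:**
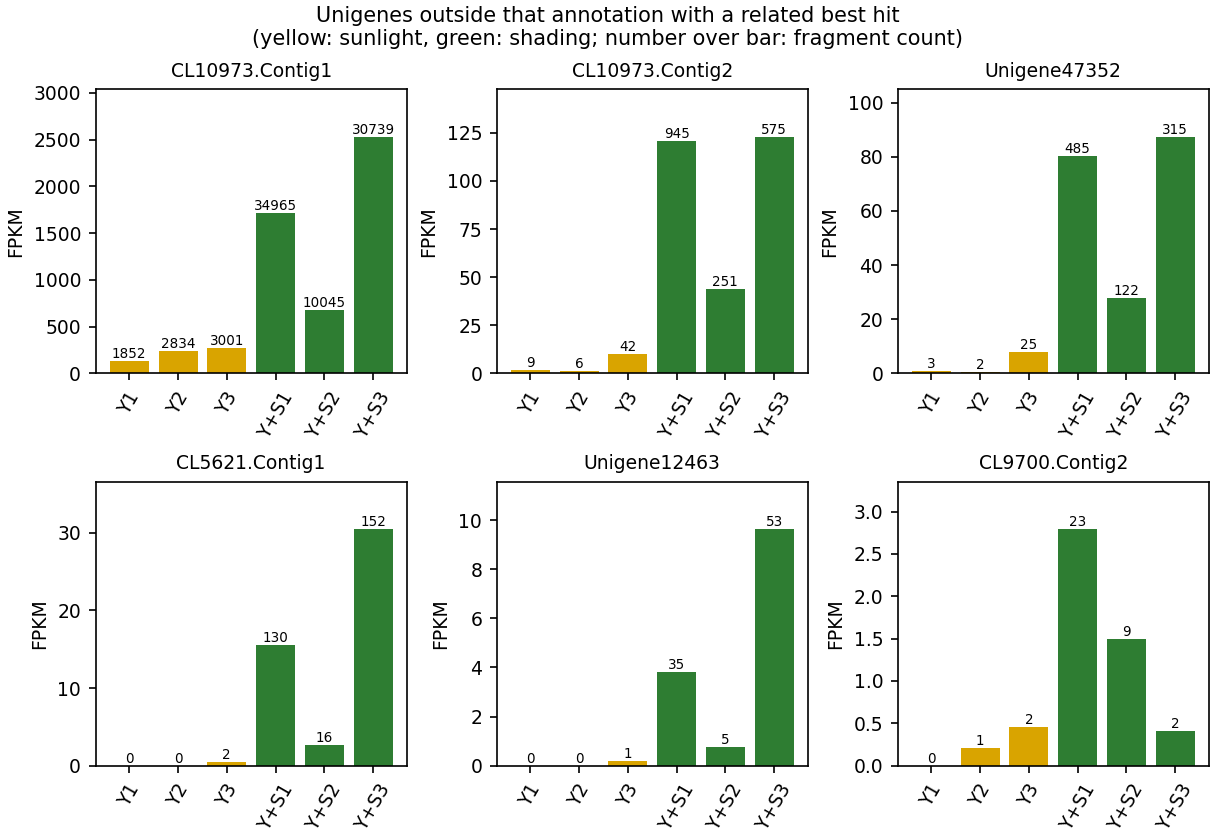
FPKM of 6 unigenes that lie outside the annotation but have the barley 23 kDa protein as best Swiss-Prot hit or share a tea protein as best Nr hit (bars, 1 per library, each panel with its own axis from 0), with the fragment count over each bar. CL10973.Contig1 reaches 678 to 2531 FPKM under shading, and CL9700.Contig2 is the 1 panel in which Y+S3 is the lowest shaded bar.

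**Figure D3:**
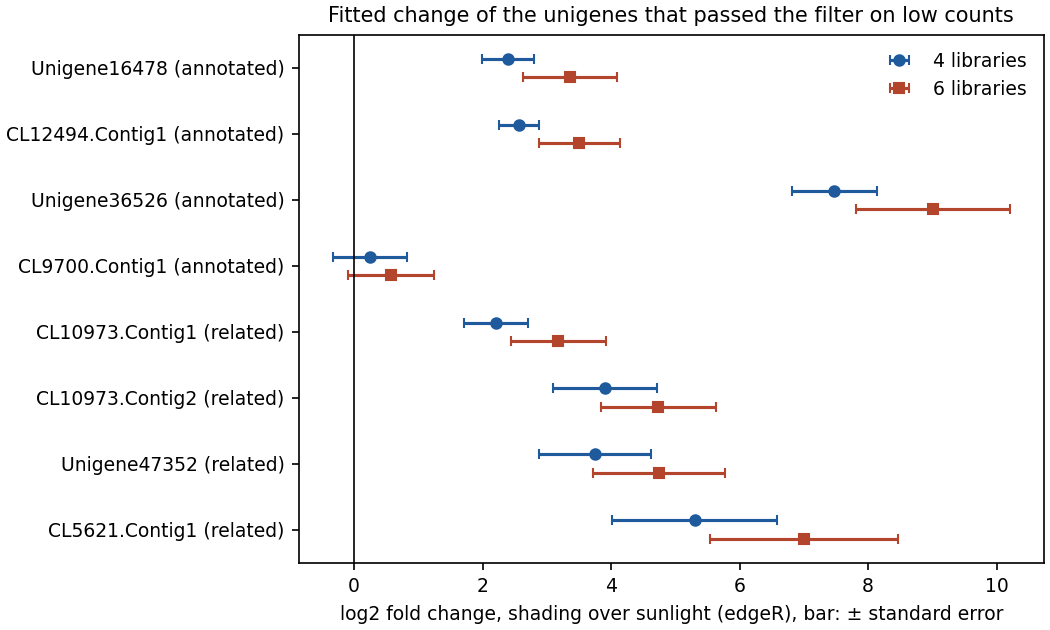
Fitted log2 fold change of shading over sunlight (edgeR) with its standard error, over the 4 libraries of the study's test (circles) and over all 6 (squares), for the unigenes of the family that passed the filter on low counts in both. Values over 6 libraries are the higher ones, CL9700.Contig1 is the 1 unigene whose error bars reach 0, and the values of Unigene36526 and CL5621.Contig1 rest on 2 sunlight fragments.

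Unigenes whose course over the 6 libraries was most like that of Unigene36526 were named by the Pearson correlation of log2(normalized CPM + 0.5), a description over 6 libraries in 2 separate groups. The 5 highest lay between 0.994 and 0.995. The first was Unigene51357, annotated as an uncharacterized protein, with 0, 0 and 7 fragments in sunlight and 486, 179 and 516 under shading. The next was Unigene56858, a Pro-X carboxypeptidase-like protein, with 102, 150 and 139 fragments in sunlight and 835, 612 and 453 under shading. After it came CL1488.Contig7, a repressor of RNA polymerase III, with 28, 33 and 36 against 106, 78 and 43. The correlation takes no account of the size of a change, which was far smaller in Unigene56858 and CL1488.Contig7 than in Unigene36526. Unigene51357 was, like Unigene36526, nearly absent in sunlight. CL13342.Contig2, a histidine-containing phosphotransfer protein of the kind that passes cytokinin signals on, had 0 fragments in every sunlight library and 28, 25 and 21 under shading. Unigene821, a salicylic acid carboxyl methyltransferase, of the enzymes that make methyl salicylate, had 86, 93 and 122 fragments in sunlight and 709, 412 and 381 under shading. Among the family, CL12494.Contig1 had a correlation of 0.988 with Unigene36526, Unigene16478 one of 0.975 and CL9700.Contig1 one of 0.466. CL12494.Contig1 and Unigene16478 had 0.996 with each other.

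Jasmonate itself is made in steps. Lipoxygenases add oxygen to linolenic acid, allene oxide synthase and allene oxide cyclase turn the product into the ring of 12-oxophytodienoate, and 12-oxophytodienoate reductase leads on to jasmonic acid. Of 52 unigenes annotated with these enzymes, 44 were tested over 4 libraries, and 34 of these had a higher and 10 a lower fitted value under shading. The median log2 fold change was 0.69 against 0.03 for all unigenes, of which 51.9% had a higher value. In this list and those below, contigs of the same cluster were counted singly, such as CL819.Contig1 to CL819.Contig5. The counts may therefore hold the same gene more than once, which was not tested. Lipoxygenases were 26 of the 44, with 23 higher and 3 lower over 4 libraries. They were taken by that word alone, and whether each takes part in jasmonate synthesis was not tested. In edgeR 0 of the 44 passed the adjusted p of 0.05 over 4 or over 6 libraries, 20 had an unadjusted p below 0.05 over 4 libraries and 15 over 6, beside 14.9% and 8.06% of all unigenes. DESeq2 called 7 higher and 1 lower over 4 libraries and 8 higher over 6, beside the 0.761% and 0.624% of all called higher. Over all 6 libraries the median was 0.84 against 0.04, and 14 of the 44 had every shaded library above every sunlight library, beside 6.67% of all unigenes.

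By enzyme, the median over 4 libraries was 0.78 for 26 lipoxygenase unigenes, 1.33 for 3 of allene oxide synthase, 0.19 for 7 of allene oxide cyclase and -0.11 for 8 of 12-oxophytodienoate reductase. Over 6 libraries these medians were 0.85, 1.50, 0.66 and 0.76, so that the last changed sign. By normalized CPM the most abundant was the lipoxygenase Unigene26768, with 49.5, 39.5 and 37.5 FPKM in sunlight and 92.6, 271 and 430.1 FPKM under shading. Its groups did not overlap, and its order among the shaded libraries was not that of Unigene16478. Its log2 fold change was 2.14 over 4 libraries (standard error 0.44, edgeR, adjusted p = 0.153). The lipoxygenases CL819.Contig2 and Unigene21891 had 2.08 (standard error 0.27, adjusted p = 0.0681) and 1.84 (standard error 0.25, adjusted p = 0.0810).

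Jasmonic acid is modified by a methyltransferase that makes the volatile methyl ester and by a conjugating enzyme that joins it to an amino acid, giving the form that the receptor binds. Of the methyltransferase, CL8930.Contig1 had 11, 13.5 and 10.9 FPKM in sunlight and 45.3, 22.1 and 13.5 FPKM under shading. On normalized CPM the groups did not overlap, but in FPKM Y+S3 lay level with Y2. Its log2 fold change was 1.44 over 4 libraries (standard error 0.41, edgeR, adjusted p = 0.208) and 1.11 over 6 (standard error 0.42, adjusted p = 0.598). CL8930.Contig2 had 1.17 over 4 libraries (adjusted p = 0.440), and the groups overlapped. DESeq2 called 1 of these 2 higher over 4 libraries and 0 over 6, beside 0.761% and 0.624% of all unigenes called higher. The conjugating enzyme CL5058.Contig2, named after its values had been seen, had 2.84, 5.23 and 4.82 FPKM in sunlight and 14.1, 11.9 and 12.9 FPKM under shading, with a log2 fold change of 1.33 over 4 libraries (edgeR, adjusted p = 0.152) and 1.69 over 6 (adjusted p = 0.496). The other contigs of this enzyme overlapped between the groups, CL5058.Contig4 with 3, 9 and 11 fragments against 30, 11 and 9 (0.32 over 4 libraries, edgeR, adjusted p = 0.842) and CL5058.Contig5 with 0, 4 and 0 against 9, 2 and 0.

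The receptor of jasmonate is COI1, its targets are the JAZ repressors of the TIFY family, and the transcription factor MYC2 is set free when these are degraded. Of 34 unigenes annotated with these names, 26 were tested over 4 libraries. Of these, 18 had a higher and 8 a lower fitted value, beside 51.9% of all unigenes higher, with a median log2 fold change of 0.57 over 4 libraries and 0.68 over 6. In edgeR 0 passed the adjusted p over 4 or over 6 libraries, 12 had an unadjusted p below 0.05 over 4 libraries and 9 over 6, beside 14.9% and 8.06% of all unigenes. DESeq2 called 3 higher over 4 libraries and 1 over 6, beside 0.761% and 0.624% of all. Over 6 libraries 25 were tested, and in 11 of them every shaded library lay above every sunlight library, beside 6.67% of all unigenes. The most abundant, CL6557.Contig3 and CL10104.Contig3, overlapped between the groups. CL6557.Contig3, annotated as JAZ1, had 210, 272 and 120 FPKM in sunlight and 274, 203 and 313 FPKM under shading. The MYC2-like CL10104.Contig3 had 84.4, 66.5 and 41.2 FPKM in sunlight and 82.5, 60.5 and 111 FPKM under shading. Unigene3131, annotated as TIFY 9, had 13.9, 27.0 and 13 FPKM in sunlight and 132, 74.1 and 167 FPKM under shading, without overlap and with the shaded libraries in the order of Unigene16478. Its log2 fold change was 2.31 over 4 libraries (standard error 0.48, edgeR, adjusted p = 0.155) and 2.95 over 6 (standard error 0.61, adjusted p = 0.496).

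Proteinase inhibitors, polyphenol oxidases, vegetative storage proteins and threonine dehydratase are induced by jasmonate in other plants such as tomato. Of the 8 unigenes with these names, 5 had a higher and 3 a lower fitted value over 4 libraries, beside 51.9% of all unigenes higher. The median log2 fold change was 0.25 over 4 libraries and 0.38 over 6. In edgeR 0 of the 8 passed the adjusted p over 4 or 6 libraries. At an unadjusted p below 0.05 there were 0 over 4 libraries and 1 over 6, beside 14.9% and 8.06% of all unigenes. DESeq2 called 0 in both, beside 0.761% and 0.624% of all called higher. Over 6 libraries, every shaded library lay above every sunlight library in 0 of the 8, beside 6.67% of all unigenes. The most abundant, the cysteine protease inhibitor Unigene46209, had 213, 205 and 264 FPKM in sunlight and 299, 301 and 362 FPKM under shading. The groups overlapped in normalized CPM. Its log2 fold change was 0.32 over 4 libraries (standard error 0.25, edgeR, adjusted p = 0.599). CL5949.Contig1, another such inhibitor, had -0.38, and the threonine dehydratase Unigene15935 had 0.18, both with overlap between the groups.

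Ribosome-inactivating proteins cut a base out of ribosomal RNA, and the 60 kDa jasmonate-induced protein of barley is one of them. Of 11 unigenes with that name, 7 were tested over 4 libraries and all 7 had a higher fitted value, beside 51.9% of all unigenes, with a median log2 fold change of 0.92. Over 6 libraries 8 were tested with a median of 2.03, 6 being higher and 2 lower. In 4 of these 8 every shaded library lay above every sunlight library, beside 6.67% of all unigenes. In edgeR 0 passed the adjusted p over 4 or 6 libraries, 3 had an unadjusted p below 0.05 over 4 libraries and 6 over 6, beside 14.9% and 8.06% of all unigenes. DESeq2 called 2 higher over 4 libraries and 1 over 6, beside 0.761% and 0.624% of all. The most abundant, Unigene28487, had 1.14, 0.248 and 0.801 FPKM in sunlight and 3.71, 56.9 and 662 FPKM under shading. Y+S1 was thus much closer to sunlight than Y+S3 was, whereas for Unigene16478 Y+S1 lay between the other shaded libraries. Of the same name, CL4479.Contig11 had 2.39, 1.30 and 0.438 FPKM in sunlight and 4.17, 13.2 and 187 FPKM under shading, and CL4479.Contig2 had 16.6, 12.7 and 16.9 FPKM against 17.9, 29.3 and 139 FPKM. Y+S3, the library with the highest phloem markers, was the highest in all 3, and the part of this in the result was not tested.

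**Figure D4:**
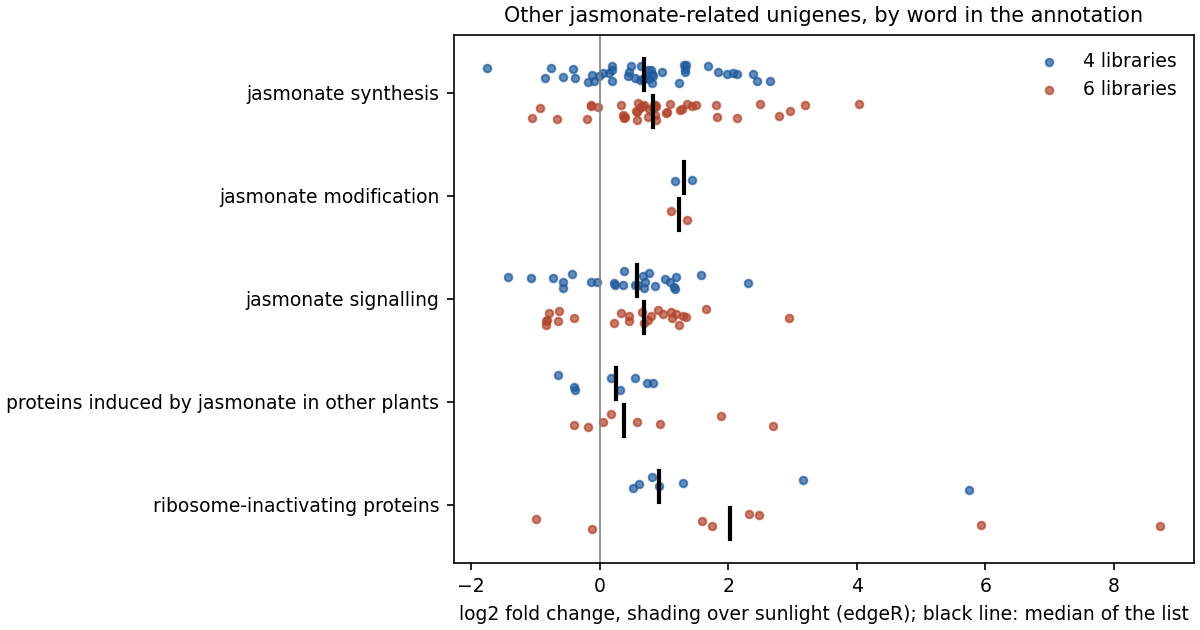
Log2 fold change of shading over sunlight (edgeR) of each tested unigene in the 5 lists of other jasmonate-related unigenes (points), over 4 libraries (blue) and 6 libraries (red), with the list's median as a black line. The medians lie between 0.25 and 1.30 over 4 libraries, and single unigenes reach 2.65 in the synthesis list (CL10710.Contig3) and 5.74 among the ribosome-inactivating proteins (Unigene28487).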

How the data were processed

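Leaf RNA of 6 samples was sequenced as stranded mRNA libraries on 1 lane of an Illumina HiSeq instrument. The authors assembled the cleaned reads of all libraries with Trinity, TGICL and Phrap, annotated the unigenes by Blast, and deposited for each unigene the raw count of uniquely aligned fragments, the FPKM and the Blast bit score of its best hits. The aligner is not given in the sources used here. Columns were matched to libraries with the deposited key. The sample descriptions carry codes of which 2 conflict with it, within their groups, so results on single libraries rest on the key. Of 127253 lines, 1 was empty, and 0 value columns were left unmapped.

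The low-count filter was filterByExpr and the scaling TMM, and edgeR 4.0.16 (R 4.3.3) gave the quasi-likelihood test, with Benjamini-Hochberg adjustment over all unigenes tested and a threshold of 0.05. Standard errors were derived from the F statistic. No 2 libraries held identical values. The libraries of a group came from different plants of 1 field, and p-values measure the spread between these. The members and lists were chosen with earlier results of these data known. The rule for named unigenes took all members, the 5 unigenes most like Unigene36526, those with its on-off pattern, and of each list the called unigenes or else the 3 most abundant. JAZ2 unigenes and enzyme classes were added to the tables after the values had been seen. A list of fungi, bacteria and animals matched 0 unigenes by the words of the annotation, so RNA of such organisms was not tested for.

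Alternatives were DESeq2 1.42.0, RLE scaling, no filter, limma 3.58.1 on log2(FPKM + 0.5) and log2(FPKM + 1) of unigenes with a mean of at least 1 FPKM, the replicate number as a block, each library left out, and the threshold of the study (0.001 with a log2 fold change of 1). This threshold was applied here to the edgeR fit. The study used it with another test, DESeq, and did report differentially expressed genes. The edgeR, DESeq2 and limma fits over 4 and 6 libraries were tested on simulated data. Figures were drawn with matplotlib 3.10.9.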

Additional observations from a re-analysis of the deposited data

How the results depend on the processing

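Over 4 libraries edgeR called 34, against 1023 with DESeq2 (489 higher and 534 lower), 954 without the filter (537 and 417), 20 with RLE scaling, 59 and 57 with limma at a pseudocount of 0.5 and 1, 0 at the threshold of the study, and from 0 (without Y2 or Y3) to 6513 (without Y+S2, and 3569 without Y+S1) when a library was left out, where the lone library of a group is assumed to vary like the others. Of the family, 1 unigene was called over 4 libraries, against 3 with DESeq2, 3 without the filter, 2 and 2 with limma at both pseudocounts, 0 at the threshold of the study and 0 to 3 with a library left out. Over 6 libraries edgeR called 0 unigenes, against 573 with DESeq2, 19 and 18 with limma, and 0 to 7 with a library left out, the 7 without Y+S3. Of the family, 0 were called over 6 libraries, against 3 with DESeq2, 1 and 1 with limma and 0 to 1 with a library left out. In these the cause was not tested.

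The log2 fold change of Unigene16478 ran from 1.73 to 2.83 over 9 alternatives of the 4-library fit and from 2.38 to 3.79 over 12 of the 6-library fit, and that of CL12494.Contig1 from 2.17 to 2.87 and from 2.58 to 3.89. Their adjusted p-values ran from 2.2e-16 to 0.741 and from 7.6e-17 to 0.578 over 4 libraries, and from 0.000658 and 0.000126 to 0.9999 over 6. The value of Unigene36526, with 2 sunlight fragments, ran from 4.41 to 11.07 over 4 libraries and from 4.93 to 11.89 over 6, both lowest with limma at a pseudocount of 1 and both highest without Y3, the library that held the 2 fragments. CL9700.Contig1 ran from -0.19 to 0.77 over 4 libraries and from -0.17 to 1.002 over 6 with a library left out, changing sign to -0.19 without Y3 and -0.10 without Y+S2 over 4 libraries, and to -0.17 without Y+S3 over 6. With the replicate block 0 unigenes were called over 6 libraries, as without it. The deviations of same-numbered libraries had correlations of -0.40, 0.01 and -0.49, and no library correlated best with its own number. The deviations of Y1 and Y+S3, the libraries that stood apart, correlated at 0.44. Such a shared deviation can hide a pairing, so this check cannot decide whether the numbers pair the libraries. The 4 libraries share only 1 number, so no block was fitted there. Depth limits CL12494.Contig2, CL9700.Contig1, CL9700.Contig2 and Unigene12463, which had at most 53 fragments in any library.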

Other observations

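The 60 kDa jasmonate-induced protein of barley, a ribosome-inactivating protein, was the best Swiss-Prot hit of 4 unigenes whose Nr hit is a maize protein without an assigned function, and which were gathered after the values had been seen. They did not share the course of Unigene16478. Unigene6494 (1180 nt) had 12.8, 19.97 and 15 FPKM in sunlight and 14.1, 12.96 and 13.6 FPKM under shading. Unigene6695 (1457 nt) had 4.73, 10.2 and 8.22 FPKM in sunlight and 7.21, 6.03 and 8.65 FPKM under shading. The groups overlapped in all 4, and their log2 fold changes lay between -0.52 and -0.37 over 4 libraries and between -0.21 and 0.07 over 6. The bit scores of these hits, 54.7 to 58.9, were lower than the 130 to 178 of the unigenes annotated with the 23 kDa protein.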
